A study of Mus musculus with 583 samples.

Results

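Mouse embryonic stem cells that carried a high share of mitochondrial RNA were compared with cells of the same library that carried a low share. The cells were chosen on a measured value. In each of 12 libraries, cells were ranked by the share of their endogenous counts that came from genes of the mitochondrial genome, and the third of cells with the highest share (high cells) was set against the third with the lowest (low cells). This gave 191 cells of high and 191 cells of low mitochondrial share, 382 of 583 cells in all, with 9 to 26 cells per group and library. The other 201 cells lay between them. The comparison itself was made on nuclear-encoded genes, whose counts were summed over the cells of each group and paired by library.

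All cells were J1, a mouse embryonic stem cell line, and all were grown in 2i/LIF, a medium with inhibitors of MEK and GSK3 and the cytokine LIF that holds cells in the naive pluripotent state. High and low cells therefore shared line, medium and library, and no treatment separated them. In the 4 full-length libraries, where cells are named by what reads as a plate well, row medians of the mitochondrial share ran from 5.32% to 8.46% in Smart-seq / C1 A and from 2.24% to 3.43% in Smart-seq2 A, and a row of Smart-seq2 A held 0 to 8 high cells. The part of plate position in the results was not tested. The 12 libraries came from 6 methods with replicates A and B each. Smart-seq / C1 and Smart-seq2 read full-length cDNA and gave read counts, whereas Drop-seq, SCRB-seq, MARS-seq and CEL-seq2 (run on the C1 instrument) counted unique molecular identifiers (UMIs) near the 3' end of transcripts. Nothing in the labels says that A and B came from separate cultures, so the p-values cover variation among these 12 libraries alone, and that variation may be technical.

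Libraries stood apart in several ways before any comparison. Summed nuclear counts per group ran from 152037 in the low cells of Drop-seq B to 11548213 in the low cells of Smart-seq2 A. Replicates A and B shared 21 cell barcodes in SCRB-seq, 26 in CEL-seq2, 19 in MARS-seq and 0 in Drop-seq. Within Drop-seq, 29 of 42 barcodes of A and 12 of 34 of B lay 1 base from another barcode of the same library. Joining such barcodes left 25 in A and 28 in B, but each of the 42 and 34 was counted as a cell here. Whether near barcodes came from the same cell was not tested. Markers of fibroblasts, trophectoderm, primitive endoderm, mesendoderm and neural cells each held between 0% and 0.0957% of nuclear counts in every group of cells, and naive and core pluripotency genes held a median of 0.955% in high cells and 0.966% in low cells.

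Mitochondria keep a small circular genome of their own. It encodes 13 subunits of the respiratory chain and ATP synthase, 2 ribosomal RNAs and 22 transfer RNAs, and it is transcribed by its own polymerase, Polrmt, with the packaging and initiation factor Tfam. Every other mitochondrial protein, including most respiratory chain subunits and all proteins of the mitochondrial ribosome, is encoded in the nucleus and imported. In single-cell RNA-seq the mitochondrial share is widely used as a quality measure, since RNA inside mitochondria can be kept when a damaged cell loses its cytoplasmic RNA. It also varies with mitochondrial content and activity.

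The mitochondrial share of the high cells had library medians from 1.37% in MARS-seq B to 12.5% in CEL-seq2 B, with a median of 5.90% over libraries. The low cells had medians from 0.559% in MARS-seq B to 8.13% in CEL-seq2 B, with a median of 3.01%. High cells thus held between 1.34 times the share of low cells, in SCRB-seq A, and 2.95 times, in MARS-seq A. These values follow from the ranking and carry no test. The border between groups was narrow in most libraries. In SCRB-seq A the lowest of the high cells had 5.23% and the cell just below it 5.18%, while the highest of the low cells had 4.68% and the cell just above it 4.69%. In MARS-seq B a single cell reached 13.2%, whereas the next highest had 2.91%. Within the UMI libraries the shares of single cells spread wider than binomial counting error alone would give. The ratio ran from 5.07 in Drop-seq A to 30.1 in MARS-seq B, where the cell at 13.2% is included. In the full-length libraries it reached 43.2, in Smart-seq / C1 A. Those counts are reads and not molecules, so binomial error on them understates the counting error. The full-length ratios therefore do not measure the excess spread.

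**Figure D1:**
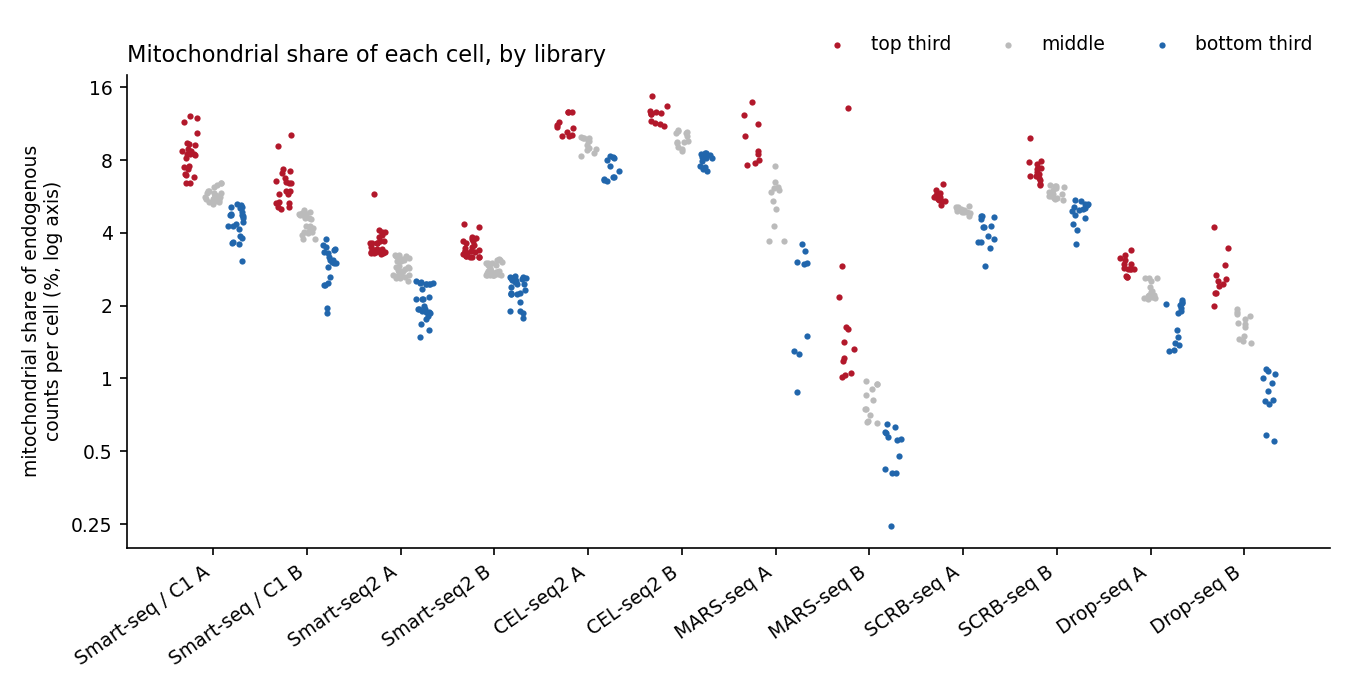
Mitochondrial share of endogenous counts in each of 583 cells (percent, log axis), by library, with the high cells in red, the middle in grey and the low cells in blue. Library medians of the high cells run from 1.37% to 12.5%, and 1 cell of MARS-seq B lies at 13.2%.

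A higher share went with more mitochondrial counts per cell in all 12 libraries, but not with 1 direction of nuclear counts. The median mitochondrial count per cell was higher in high cells by 0.26 on the log2 scale in CEL-seq2 B, where the gap was smallest, and by 2.28 in MARS-seq A. The median nuclear count was lower in high cells in 7 libraries and higher in the other 5. High cells of Smart-seq / C1, Smart-seq2 and CEL-seq2 had fewer nuclear counts in both replicates, by 0.08 to 0.34 on the log2 scale. High cells of SCRB-seq and Drop-seq had more in both replicates, by 0.17 to 0.30. Across the cells of a library, Spearman's rho between mitochondrial share and nuclear count was -0.50 and -0.48 in Smart-seq / C1 A and B, and 0.48 and 0.30 in SCRB-seq A and B. These are descriptions of single cells that share a library, and the nuclear count is also part of the share.

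Mitochondrial genes differed in how fully they took part. 9 of 37 had at least 20 counts in the compared cells of every library, and of their 108 ratios of high to low cells 3 lay below 0 on the log2 scale. The ribosomal RNA mt-Rnr2, of the large mitochondrial ribosomal subunit, had 9396, 15362 and 55675 CPM (endogenous counts scaled to a common total) as lowest, median and highest library for high cells, against 3301, 7687 and 22709 for low cells. Its median log2 ratio was 0.87, and it was higher in 12 of 12 libraries. The other ribosomal RNA, mt-Rnr1, had a median log2 ratio of 0.94 and was also higher in 12 of 12. Among protein genes, mt-Cytb of complex III had a median log2 ratio of 0.78, mt-Nd1 of complex I 0.67 and mt-Co1 of complex IV 0.45. The smallest ratios of mt-Co1, mt-Nd4 and mt-Nd6 were -0.09, -0.12 and -0.30, each in 1 library. Since these genes made the ranking, no test was run on them.

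**Figure D2:**
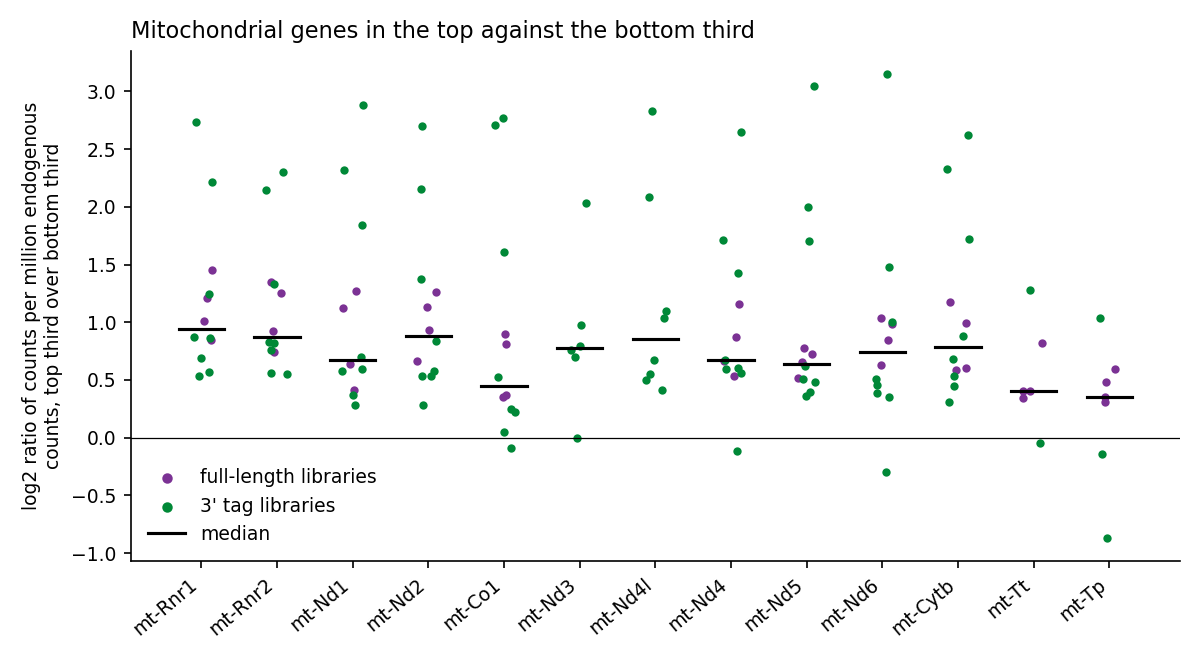
Log2 ratio of CPM (of endogenous counts), high over low cells, for the 13 mitochondrial genes with at least 20 counts in the compared cells of 6 or more libraries. Each point is a library (purple, full-length; green, 3' tag) and bars are medians, which run from 0.35 for mt-Tp to 0.94 for mt-Rnr1.

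Ribosomal and messenger RNA of the mitochondria tended to be high in the same cells. When cells were ranked by the 13 protein genes alone, a ranking that does not use ribosomal RNA, mitochondrial ribosomal RNA per nuclear count was higher in the high cells in 11 of 12 libraries, with a median log2 ratio of 0.67 and a range from -0.28 in Drop-seq A to 1.93 in MARS-seq B. 1 cell held 3162 of the 7602 mitochondrial counts of the high cells of MARS-seq B, and without it that library's ratio was 1.25. Both measures have the nuclear count below the line, so the ratio is given without a test. The 2 rankings shared 150 of 191 high cells (78.5%). Ribosomal RNA also made up more of the mitochondrial counts in high cells in 10 of 12 libraries. That share was 32.6% in high and 22.2% in low cells of Smart-seq2 A, but 64.6% in high and 80.1% in low cells of Drop-seq B.

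4 mitochondrial protein genes had almost no counts in any library. Over all 583 cells, mt-Co2 had 6 counts, mt-Atp8 2, mt-Atp6 13 and mt-Co3 18, which is 39 of 4604445 mitochondrial counts. The 5 protein genes that lie outside any part of the segment described next had 106920 to 1005109 counts per kilobase. In the GRCm38 genome, mitochondrial bases 6390 to 11042 have a nuclear copy on chromosome 1 (24611535 to 24616188, reverse strand) that is 99.9% identical over 4654 aligned bases. Every 50-base window of mt-Co2, mt-Atp8, mt-Atp6 and mt-Co3 occurs in it. So does every such window of mt-Nd4l, which had 6218 counts. The part of this identity in the low counts was not tested. The mitochondrial share used here thus holds almost no mt-Co2, mt-Atp8, mt-Atp6 or mt-Co3. In the 4 full-length libraries mt-Nd3 and mt-Nd4l were also at 0 in the compared cells, and 7 of 13 protein genes had at least 100 counts in each of these libraries. Tag libraries had 7 to 9 such genes.

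Some nuclear-annotated genes are copies of mitochondrial genes, and their sequences are shown because the counts described further on may belong to either place. Such copies, called NUMTs, are stretches of mitochondrial DNA that were inserted into chromosomes. The first 100 aligned bases are shown for 3 of them, from the GRCm38 genome (RefSeq), 5' to 3' on the strand of the gene, with the bases that differ between copy and mitochondrial gene in capitals. Gm13341 (chr2:22587863-22587962, minus strand) differs from mt-Co2 (chrM:7013-7112, plus strand) at 2 of 100 bases, whereas the chromosome 1 copy (chr1:24615466-24615565, minus strand) is identical to mt-Co2 there. Gm13339 (chr2:22590434-22590533, minus strand) differs from mt-Nd2 (chrM:4442-4541, plus strand) at 2 bases, and Gm11410 (chr4:80003990-80004089, plus strand) from mt-Cytb (chrM:14146-14245, plus strand) at 5.
Gm13341: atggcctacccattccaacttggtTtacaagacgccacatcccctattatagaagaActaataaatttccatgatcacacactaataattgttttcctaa
mt-Co2: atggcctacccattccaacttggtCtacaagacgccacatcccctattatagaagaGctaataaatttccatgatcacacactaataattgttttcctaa
chromosome 1 copy: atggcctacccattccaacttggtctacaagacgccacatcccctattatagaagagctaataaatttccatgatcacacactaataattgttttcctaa
Gm13339: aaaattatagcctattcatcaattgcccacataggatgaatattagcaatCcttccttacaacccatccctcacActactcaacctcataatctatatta
mt-Nd2: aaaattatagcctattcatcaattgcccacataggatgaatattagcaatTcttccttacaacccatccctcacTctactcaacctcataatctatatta
Gm11410: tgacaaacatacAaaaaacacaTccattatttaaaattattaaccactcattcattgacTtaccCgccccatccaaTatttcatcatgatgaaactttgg
mt-Cytb: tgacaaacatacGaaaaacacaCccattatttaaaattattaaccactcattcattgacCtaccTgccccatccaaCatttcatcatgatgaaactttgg

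No nuclear-encoded gene passed the test between high and low cells. Of 7564 nuclear genes tested, 0 had an adjusted p below 0.05 (0% called; edgeR quasi-likelihood test with the library as a block, Benjamini-Hochberg adjustment), and the lowest adjusted p was 0.382. DESeq2's Wald test on the same counts also called 0 genes. At an unadjusted p below 0.05 edgeR gave 426 genes and DESeq2 529. Of the 426, 215 were higher in high cells (2.84% of genes tested) and 211 lower (2.79%). The 95% interval of the fold change lay within 2-fold either way for 7278 genes (96.2%), and within 1.5-fold for 4788 (63.3%).

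6 nuclear copies of mitochondrial genes were among the genes tested, of 21 that align to the mitochondrial chromosome over at least 50% of a transcript. 16 of the 21 had a count, and those that did not pass the filter on low counts were not tested, so the count of 6 is a description. All 6 tested were higher in high cells, with log2 fold changes of 0.71 to 1.01 and a median of 0.91, beside a median of 0.00 over all genes tested. Gm13341, the copy of mt-Co2, had 1.81, 47.9 and 547 CPM (of nuclear counts) as lowest, median and highest library for high cells, against 1.04, 21.2 and 334 for low cells. The groups overlapped over most of this range. Gm13341 had 836 counts in all high cells against 490 in all low cells, was higher in 10 of 12 libraries by CPM, and had a log2 fold change of 1.01 (SE 0.22, edgeR adjusted p = 0.382). Gm13340, the copy of mt-Co1, was higher in 11 of 12 libraries by CPM, with a log2 fold change of 0.88 (SE 0.29, edgeR adjusted p = 0.872). Gm11410, the copy of mt-Cytb, was higher in 10 of 12 by CPM, with a log2 fold change of 0.997 (SE 0.28, edgeR adjusted p = 0.820). Without SCRB-seq A, Gm11410 and Gm13341 passed the threshold, both at an edgeR adjusted p of 0.0478.

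Gm13339 (copy of mt-Nd2) had a log2 fold change of 0.86, Gm11407 (mt-Nd5) 0.71 and Gm4076 (mt-Nd5) 0.93. Gm13339 had 8798 counts in high and 7212 in low cells of CEL-seq2 B, but 2 to 12 counts per group in the 4 full-length libraries. mt-Co2 itself had 6 counts over all cells, whereas Gm13341 had 17 to 323 in the high cells of single libraries. The rule of the ranking did not count these copies as mitochondrial. Whether their reads came from the nuclear copy or from the mitochondrial gene was not tested, so they are no independent measure of a nuclear change.

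**Figure D3:**
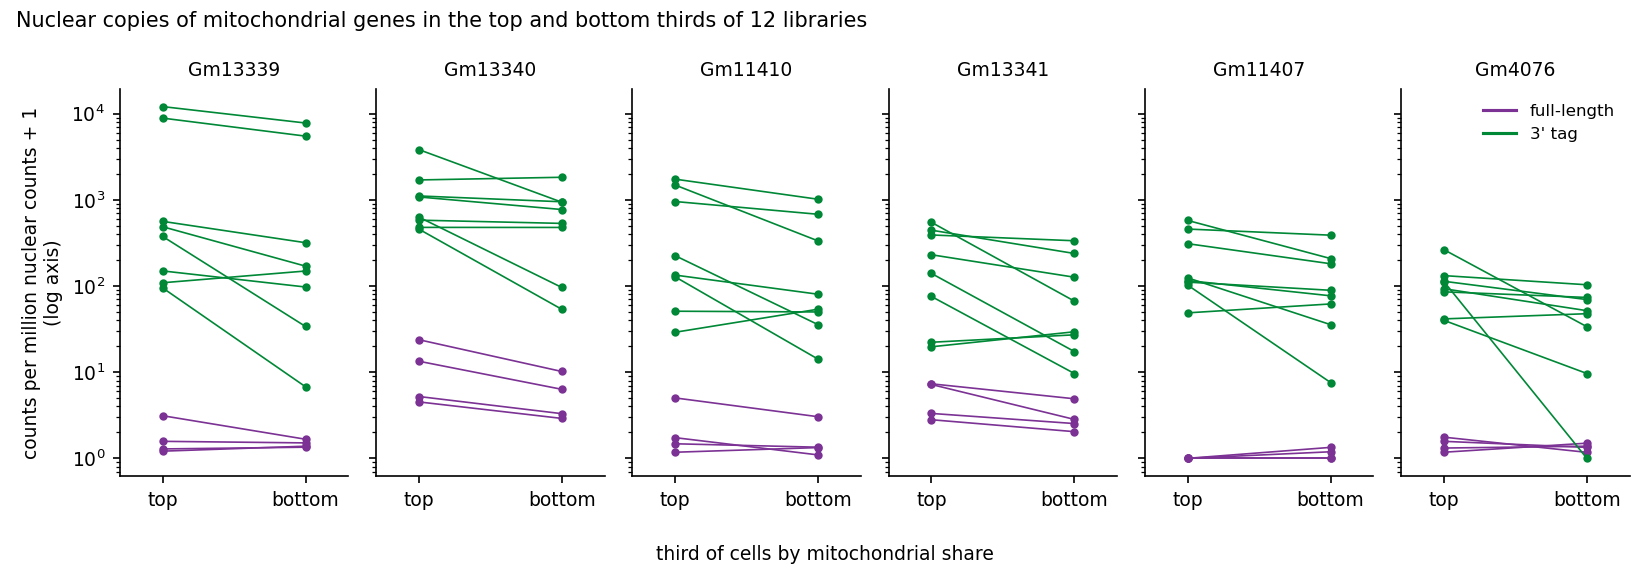
CPM (of nuclear counts) plus 1 (log axis) of the 6 nuclear copies of mitochondrial genes tested, in the high (top) and the low (bottom) cells of each library (lines join the groups of 1 library; purple, full-length; green, 3' tag). Most lines are higher on the left, in 7 to 11 of 12 libraries per gene.

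**Figure D4:**
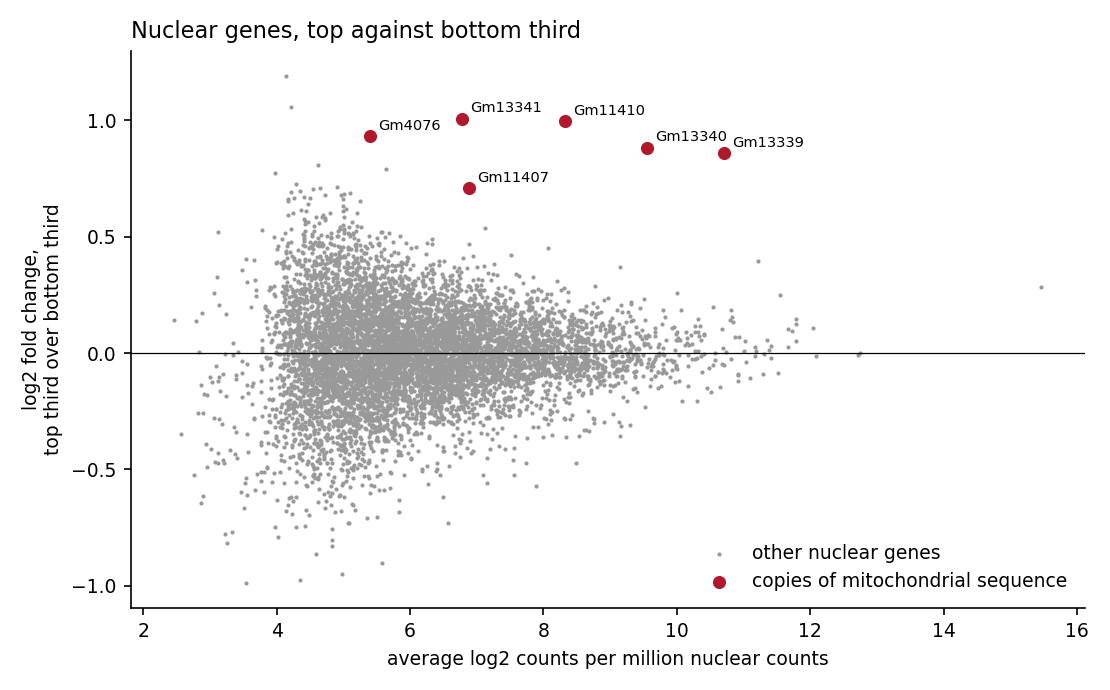
Log2 fold change of high over low cells against average log2 CPM for 7564 nuclear genes, with the 6 copies of mitochondrial sequence in red. The copies lie at 0.71 to 1.01, while the median gene lies at 0.00.

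Nuclear genes of the respiratory chain differed little between high and low cells. Of 79 nuclear genes of complexes I to IV and ATP synthase, 76 were tested, and 37 were higher and 39 lower in high cells. Their log2 fold changes lay between -0.14 and 0.18, with a median of 0.00, and the 95% interval of all 76 lay within 1.5-fold. Complex I genes had a median of 0.01 over 35 genes and complex IV genes 0.01 over 12. Complex III genes had -0.03 over 9, ATP synthase genes -0.02 over 16 and complex II genes 0.00 over 4. Cox4i1, a complex IV subunit, had 390, 1317 and 1966 TMM-scaled CPM as lowest, median and highest for high cells, against 285, 1387 and 2000 for low cells, and the groups overlapped fully. Atp5b, the catalytic subunit of ATP synthase, had a log2 fold change of -0.09 (SE 0.07). Cox6b1 of complex IV was the 1 gene of the 76 with an unadjusted p below 0.05, at 0.17 (SE 0.08, edgeR adjusted p = 0.872), higher in 10 of 12 libraries, beside 2.84% of all genes tested that were higher at that p.

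Genes that make or handle mitochondrial RNA did not pass the test either. Tfam had 69.6, 111 and 162 TMM-scaled CPM as lowest, median and highest for high cells, against 75.1, 110 and 174 for low cells, and a log2 fold change of 0.02 (SE 0.12). Polrmt had a log2 fold change of -0.18 (SE 0.25), at lower counts. Lrpprc, which stabilises mitochondrial messenger RNA, had 0.25 (SE 0.11, edgeR adjusted p = 0.872) and was higher in 8 of 12 libraries. Of 21 tested genes of mitochondrial RNA processing and decay, 12 were higher, with a median of 0.05. Of 13 genes of mitochondrial DNA maintenance and transcription, 5 were higher, with a median of -0.04. Tfb1m, a mitochondrial ribosomal RNA methyltransferase, had -0.57 (SE 0.28, edgeR adjusted p = 0.872).

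No gene of mitochondrial protein synthesis or import passed the test. Of 76 tested mitochondrial ribosomal proteins 35 were higher, with a median log2 fold change of -0.01, and the 95% interval of all 76 lay within 2-fold. Mrps35 and Mrpl16, subunits of the small and the large mitochondrial ribosomal subunit, had 0.37 (SE 0.15) and 0.36 (SE 0.15), both with an edgeR adjusted p of 0.872. Among 9 mitochondrial translation factors 7 were higher, with a median of 0.12, and the elongation factor Gfm1 had 0.32 (SE 0.14). Import genes had a median of 0.04 over 25 genes, TCA cycle genes -0.03 over 19, and mitochondrial chaperones and proteases -0.06 over 14. Hspd1, the mitochondrial chaperonin, had 0.02 (SE 0.08), and the electron carrier Cycs 0.18 (SE 0.17).

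**Figure D5:**
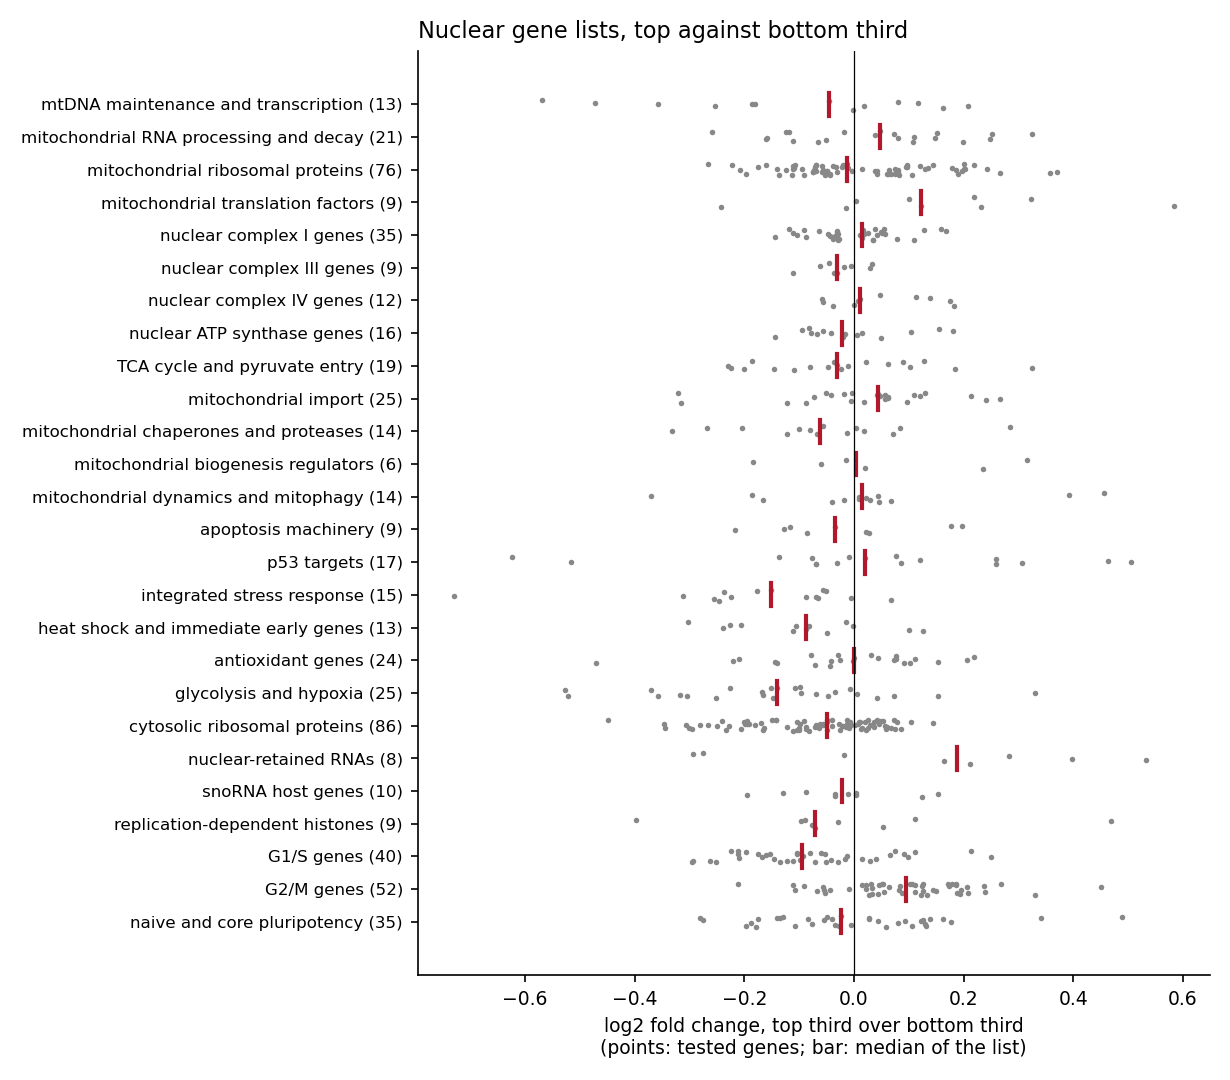
Log2 fold change of high over low cells for tested genes of each list with 6 or more of them (points; number tested in parentheses) and the list's median (red bar). Medians run from -0.15 for the integrated stress response to 0.19 for nuclear-retained RNAs.

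No stress or cell death gene passed the test. Of 9 tested genes of the apoptosis machinery 4 were higher, with a median of -0.03, and the effector Bax had 0.02 (SE 0.11). Of 17 p53 targets 9 were higher, with a median of 0.02. The integrated stress response, which responds to amino acid shortage and to mitochondrial damage, had 1 of 15 tested genes higher and a median of -0.15. Asns, asparagine synthetase, had 358, 556 and 2625 TMM-scaled CPM as lowest, median and highest for high cells, against 474, 640 and 2997 for low cells, and a log2 fold change of -0.15 (SE 0.08, edgeR adjusted p = 0.872). Pck2, a mitochondrial enzyme of this response, had -0.73 (SE 0.24, edgeR adjusted p = 0.872). The factor Ddit3 had 233 counts in high and 496 in low cells, and Atf5, a factor of the mitochondrial stress response, had 122 and 200. Neither passed the filter on low counts. In the 4 full-length libraries alone 0 of 20 tested genes of this list were higher, and in the 8 tag libraries alone 7 of 12 were. The list's median was -0.09 without MARS-seq A. The difference between the method classes was not tested for lists.

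Glycolytic genes mostly had negative fold changes, and 0 passed the adjusted threshold. Of 25 tested genes of glycolysis and the hypoxia response 5 were higher, with a median log2 fold change of -0.14, beside 49.9% higher over all genes tested. At an unadjusted p below 0.05, 5 of the 25 were lower, beside 2.79% of all genes tested. Pfkp, a phosphofructokinase, had 97.0, 159 and 383 TMM-scaled CPM as lowest, median and highest for high cells, against 127, 202 and 511 for low cells, with a log2 fold change of -0.32 (SE 0.11, edgeR adjusted p = 0.872), and was higher in 2 of 12 libraries. Eno1, an enolase with near-identical copies in the genome, had -0.36 (SE 0.12) and Aldoa -0.05 (SE 0.07). Without Smart-seq2 A the list's median was -0.08. Bnip3, a hypoxia-induced receptor for mitophagy, had -0.37 (SE 0.15, edgeR adjusted p = 0.872).

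G2/M genes mostly had positive fold changes, and 0 passed the adjusted threshold. Of 52 tested G2/M genes 42 were higher, with a median log2 fold change of 0.10, beside 49.9% of all genes tested. At an unadjusted p below 0.05, 3 of the 52 were higher, beside 2.84% of all genes tested. Cenpf, a kinetochore protein, had 108, 276 and 694 TMM-scaled CPM as lowest, median and highest for high cells, against 74.9, 164 and 591 for low cells. It was higher in 12 of 12 libraries, with a log2 fold change of 0.45 (SE 0.12, edgeR adjusted p = 0.550). Ccna2, cyclin A2, had 0.27 (SE 0.11). Without CEL-seq2 A the G2/M median was 0.06. The summed share of G2/M genes in nuclear counts was higher in high cells in 8 of 12 libraries. It was lower in MARS-seq A and B, CEL-seq2 B and Smart-seq2 B, with high to low ratios of 0.895, 0.734, 0.871 and 0.985. Of 40 G1/S genes 10 were higher, with a median of -0.09. Leaving out 1 library at a time gave medians of 0.05 (without Smart-seq2 A; 32 of 52 higher) to 0.11 for G2/M genes and -0.12 to -0.07 for G1/S genes.

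Pluripotency genes had about as many positive as negative fold changes. Of 35 tested naive and core genes 16 were higher, with a median of -0.02. Nanog, a core pluripotency factor, had 351, 447 and 960 TMM-scaled CPM as lowest, median and highest for high cells, against 350, 508 and 855 for low cells, and a log2 fold change of -0.08 (SE 0.08). Pou5f1, which encodes Oct4, had -0.19 (SE 0.10, edgeR adjusted p = 0.873). Malat1, an RNA retained in the nucleus, had 497, 2419 and 5025 TMM-scaled CPM for high cells, against 578, 1960 and 5539 for low cells. Its log2 fold change was 0.40 (SE 0.10, edgeR adjusted p = 0.550), and it was higher in 9 of 12 libraries. Gm42418, which overlaps a ribosomal RNA repeat, had 0.28 (SE 0.08, edgeR adjusted p = 0.550). Of 8 tested genes listed as nuclear-retained RNAs, Malat1 and Gm42418 among them, 5 were higher, with a median of 0.19. Leaving out Smart-seq / C1 A gave 0.02, Smart-seq / C1 B 0.07, Smart-seq2 A 0.04 and Smart-seq2 B 0.10. Wsb1, a ubiquitin ligase adaptor chosen after its values were seen, had the smallest p of genes that are no mitochondrial copy, with a log2 fold change of 0.54 (SE 0.12, edgeR adjusted p = 0.382).

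Processed pseudogenes are an annotation class chosen after the values were seen. Of 502 tested, 110 were higher in high cells, with a median log2 fold change of -0.16, whereas of 6896 protein-coding genes 3579 were higher, with a median of 0.01. In the 8 tag libraries alone 100 of 578 were higher, and in the 4 full-length libraries alone 205 of 363. This difference was not tested. With cells ranked by the share left after a trend on nuclear count, 224 of 512 were higher and the median was -0.03. Without SCRB-seq A the median was -0.06, without SCRB-seq B -0.08 and without Drop-seq B -0.09. These pseudogenes share sequence with expressed parent genes, so their counts are uncertain. Cytosolic ribosomal proteins, parents of many of them, had 28 of 86 higher and a median of -0.05, which was -0.08 when either CEL-seq2 library was left out and -0.03 when either SCRB-seq library was.

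3 values per library that the ranking did not use were tested by exact two-sided sign-flip permutation over libraries. Replicates A and B of a method were flipped as separate libraries, so these p-values ignore any likeness within a method. Nuclear genes detected per cell, after thinning to 5000 nuclear counts, averaged 2411 ± 181 in high cells and 2423 ± 164 in low cells (SD, n = 12), and the exact permutation p was 0.493 (adjusted over the 3 values 0.493; higher in 6 of 12). The ribosomal protein share of nuclear counts averaged 7.51% ± 4.11 in high cells and 7.71% ± 4.12 in low cells (SD, n = 12), and the exact permutation p was 0.303 (adjusted 0.455; higher in 6 of 12). The difference, high minus low, lay between -1.35 and -0.505 percentage points in both SCRB-seq and both Drop-seq libraries. It was higher by 0.409 and 0.139 in CEL-seq2 A and B and by 0.00826 and 0.856 in MARS-seq A and B, and Smart-seq / C1 and Smart-seq2 had 1 replicate on each side. Spike-in RNA of the External RNA Controls Consortium (ERCC) is added to cell lysates as a reference, and its count per cell was higher in high cells in 7 of the 10 libraries with a median of at least 10 spike-in counts per cell, by 0.22 ± 0.31 on the log2 scale (SD, n = 10; exact permutation p = 0.0566, adjusted 0.170). With cells ranked by the share left after a trend on nuclear count, the difference was 0.06, higher in 5 of the 10 libraries (exact permutation p = 0.391, adjusted 0.575). Both Drop-seq libraries, with medians of 2 to 8 spike-in counts per cell in high and low cells, were left out. The smallest p this test can give is 0.000488 with 12 libraries and 0.00195 with 10.

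Counts set against the spike-ins gave both parts of the share. Mitochondrial counts per spike-in count were higher in high cells in 9 of these 10 libraries, with a median ratio of 1.39. Nuclear counts per spike-in count were higher in 2 of 10, with a median ratio of 0.811. Both are ratios of counts summed over the cells of a group, so cells with many spike-in counts weigh most. A high cell of Smart-seq / C1 B held 96607 spike-in counts, beside a median of 11649 in that group. Because the ranking used mitochondrial and nuclear counts, these ratios are descriptions. By these sums, SCRB-seq A was the library with fewer mitochondrial counts per spike-in count in its high cells. It had 518 per 1000 spike-in counts in high cells against 567 in low cells. A high cell of SCRB-seq A held 20828 spike-in counts, beside a median of 3968 in that group. Ratios per cell were not computed.

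The difference between high and low cells was also compared between full-length and 3' tag methods. Of 7564 nuclear genes, 0 had an adjusted p below 0.05 for the difference (0% called; edgeR interaction term, lowest adjusted p 0.932), and 282 had an unadjusted p below 0.05. DESeq2 called 2 genes, named with the other settings. On simulated data this comparison recovered 4% of genes changed 1.5-fold and 32% of those changed 2-fold. The tag class joins CEL-seq2, where mitochondrial share fell with nuclear count, with SCRB-seq and Drop-seq, where it rose. Differences among tag methods could not show in this split, so the 0 calls do not mean that methods were alike.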

How the data were processed

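The authors deposited 1 table of counts, UMI counts for the 3' tag methods and read counts for Smart-seq / C1 and Smart-seq2. Per the deposited note, the Drop-seq pipeline produced the UMI counts, and STAR 2.4.0, bcl2fastq and mm10 were used per the submitters' processing notes. The tool that counted the Smart-seq reads is not given in the sources used here. Identifiers of 37607 genes matched GENCODE M21 (GRCm38). Genes named mt- were the mitochondrial genes.

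Cells were summed by group and library (24 sums), filtered with filterByExpr, scaled by TMM and fitted with edgeR 4.0.16 (robust quasi-likelihood, library as a block, threshold 0.05). High and low cells are paired because they are cells of the same library. DESeq2 1.42.0 was an alternative. The model was tested on simulated data with 50 changed genes at each fold. It recovered 48% of genes changed 1.5-fold and 92% of those changed 2-fold, and gave 171 calls in all. For the difference between method classes it recovered 4% and 32%. Simulated spread followed a trend on expression, without further spread of single genes, and many calls ease the adjusted threshold. In the data, with 0 calls, Gm13341 had a log2 fold change of 1.01 at an edgeR adjusted p of 0.382. These rates therefore do not measure how many 2-fold changes the data could hide. The common biological coefficient of variation was 0.225, with 11 residual degrees of freedom. All deposited cells were ranked, and doublets were not called. Nuclear copies were found with blastn 2.17.0. Log2 fold changes are of high over low cells. Their SEs were derived from the fold change and the F statistic of the edgeR test, and the 95% intervals from these SEs. Both are approximate. Depth per cell ran from 10078 to 491936 nuclear counts. Named genes are the 2 of smallest p and the 1 of highest expression per list, 12 listed genes, and the nuclear copies. No gene passed the rule for the largest changes. Cells and gene lists were chosen with earlier results of these data known.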

Additional observations from a re-analysis of the deposited data

Results flagged for a closer look

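Gm4076, a nuclear copy of mt-Nd5, stood apart in Drop-seq B among the 8 tag libraries. The log2 ratio of CPM plus 1 was 6.81 there, from 22 counts in high cells and 0 in low cells, so its size depends on the added 1. Of 21 groups of libraries examined in this way 1 was picked out, and chance picks out about 1 in 20.

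The relation of mitochondrial share to nuclear count per cell ran in opposite directions between methods, with both replicates of a method on the same side. Spearman's rho was -0.50 and -0.48 in Smart-seq / C1 A and B, -0.48 and -0.48 in Smart-seq2 A and B, and -0.19 and -0.43 in CEL-seq2 A and B. It was 0.48 and 0.30 in SCRB-seq A and B, and 0.14 and 0.42 in Drop-seq A and B. In MARS-seq the replicates lay on both sides of 0, at 0.11 in A and -0.02 in B. The difference between methods was not tested.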

How the results depend on the processing

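Counts of nuclear genes past an adjusted p of 0.05 stayed at 0 with DESeq2's size factors, its Wald test, the upper against the lower 0.25 of cells, joined Drop-seq barcodes, full-length or tag libraries alone, A or B libraries alone, no MARS-seq, no Drop-seq, and without genes that share or align to mitochondrial sequence. The count was 9 without a filter on low counts (5 of them nuclear copies of mitochondrial sequence, and Malat1, Gm42418, Slc34a2 and Gm8648), 1 with the upper against the lower 0.5 of cells (Gm20594, a copy of mt-Rnr2), 1 when cells were ranked by mitochondrial protein genes (Gm11410), 2 when they were ranked by the share left after a trend on nuclear count and 2 after thinning (Gm11410 and Gm13341 both times). Leaving out 1 library gave 0 to 2 genes, the 2 without SCRB-seq A being Gm11410 (log2 1.15, adjusted p = 0.0478 by edgeR) and Gm13341. With no replicate block the count was 0 and 14 genes had an unadjusted p below 0.05, against 426 with the paired fit. For the difference between method classes the count was 2 with DESeq2's Wald test (Vezf1 and Rnf169), 13 without a filter, and 0 in all other settings run, leave-outs included. All 13 had the larger high to low change in full-length libraries, and Zscan4c, Zscan4d and Zscan4f were among them. The summed share of two-cell-like genes, a list that holds 1 tested gene, was higher in high cells in 4 of 12 libraries. Its high to low ratio was 1.70 in Smart-seq / C1 B and 0.989 in Smart-seq / C1 A. The causes were not tested. The 3 values per library kept an adjusted p above 0.05 in every setting run, but their sizes moved. Leaving out 1 library gave -22.4 (Drop-seq B) to -4.59 (Smart-seq / C1 B) detected genes, with -6.27 for Smart-seq / C1 A and -5.68 for MARS-seq B. It gave -0.289 (MARS-seq B) to -0.0886 (SCRB-seq A) percentage points of ribosomal protein share, and 0.16 (SCRB-seq A) to 0.26 (Smart-seq2 A; exact permutation p = 0.0312, adjusted 0.0938) for spike-ins, whose unadjusted p was also below 0.05 when CEL-seq2 B or MARS-seq A was left out. Ranked by mitochondrial protein genes, the differences were -19.0 genes and -0.036 percentage points. The difference in ribosomal protein share was -0.103 as a mean over cells, -0.365 with the upper against the lower 0.25 of cells and -0.119 ranked by the share left after a trend on nuclear count. Without the block their differences were the same, -11.9 genes, -0.194 percentage points and 0.22 on the log2 scale, with adjusted permutation p of 0.902 each. Values of single named genes kept their side of the threshold in 2976 comparisons with an alternative and passed it in 13 others. The settings without MARS-seq, without Drop-seq, without aligned genes and without the cell of highest share were chosen after seeing the data. The last gave a median log2 ratio of 0.64 for mitochondrial ribosomal RNA in cells ranked by protein genes, against 0.67 with all cells, and it was higher in 11 of 12 libraries both times. Sums of as few as 152037 nuclear counts limit the tag libraries.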

Other observations

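The median log2 fold change of the 309 tested genes of the shortest of 5 annotated length classes, a split chosen after the values were seen, depended on the libraries. It was -0.12 over all libraries. Leaving out SCRB-seq A gave 0.00 and SCRB-seq B -0.04, while Drop-seq A gave -0.08 and Drop-seq B -0.06. It was 0.12 in the full-length libraries alone and -0.20 in the tag libraries alone. The 2600 genes of the longest class had a median of 0.04, or 0.02 without Drop-seq B and 0.03 without SCRB-seq A.

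Of 24 tested antioxidant genes 12 were higher and 12 lower in high cells, with a median log2 fold change of -0.0005. Gpx4, a glutathione peroxidase that reduces lipid peroxides, had the lowest of the list. Gpx4 had 7.2, 176 and 512 TMM-scaled CPM as lowest, median and highest library for high cells, against 19.3, 279 and 519 for low cells. Its log2 fold change was -0.47 (SE 0.13, edgeR adjusted p = 0.550), and it was higher in 3 of 12 libraries.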
